A study of Rattus norvegicus with 48 samples.

Results

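Livers that had been deprived of blood and reperfused were compared, as a single set, with livers that had not. The ischemic set held 40 of the 48 male Wistar rats of the study, and the remaining 8 were sham animals. The 4 ischemia protocols contributed equally, since the mean of the group means was compared with sham, whatever the protocol. A gene was then sorted by whether its difference from sham had one sign in every protocol. This gave 7417 of 14506 measured genes a common direction, 4289 above sham and 3128 below it.

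In the IRI group, 10 rats had 30 min of ischemia of the whole liver and were sampled after 30 min of reperfusion. In the IPC group, 10 rats went through the same insult after an earlier 10 min of ischemia and 10 min of reperfusion, known as preconditioning. In the IPO group, 10 rats were postconditioned: as reperfusion began, flow was let in for 30 sec and stopped for 30 sec, 3 times over. The IPC+IPO group, 10 rats, had both manoeuvres, and the sham group, 8 rats, had no ischemia. All 48 rats weighed 300 to 350 g and were anaesthetised and opened by laparotomy, sham animals included. No duration of surgery or anaesthesia in sham rats was used here. A difference in that duration cannot be told apart from ischemia. One biopsy of the right lobe per rat was hybridised to one Affymetrix array. The labels treat the rats as separate animals and name no day or batch. Ischemia and reperfusion were not sampled apart, so all values of the ischemic livers belong to a single time, 30 min into reperfusion. No sampling time for the sham livers was used here.

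Reperfusion of an ischemic liver is known to bring oxygen radicals, calcium entry and activation of stress kinases in hepatocytes, and to activate Kupffer cells, the resident macrophages. The first transcriptional answer of a cell to such signals is carried by immediate-early genes, whose promoters are occupied by factors already present and which need no new protein. Among them are subunits of the AP-1 transcription factor, Egr1 and Atf3, and, in the same wave, inhibitors that end the signal: phosphatases of the MAP kinases, SOCS proteins of the JAK-STAT pathway, and Zfp36, which destabilises cytokine mRNAs. Chemokines that attract neutrophils follow within the same period.

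Atf3, Rhob, Cxcl1, Gadd45a, Socs2, Jun, Zfp36, Junb, Egr1 and Fgf21 had the largest rises, between 1.57 and 2.45 on the log2 scale of the arrays, on which a step of 1 is a 2-fold change. Falls were smaller: the predicted gene LOC366310 was at -1.06 (adjusted p = 0.0343) and Cyp7a1, next in order, at -0.98. By limma, with Benjamini-Hochberg adjustment over all genes and a threshold of 0.05, 1629 of 14506 genes passed (11.2%). Of these, 1303 were higher in the ischemic livers (8.98%) and 326 were lower (2.25%). All but 2 of them, 1302 higher and 325 lower, had one direction in all 4 protocols. The 4 differences use the same sham arrays, so that agreement is a description and was not tested. One direction is not a call in each protocol. In the same limma model, IRI livers alone against sham passed for Junb (adjusted p = 0.0462). They did not pass for Atf3 (0.228), Rhob (0.194), Jun (0.235), Egr1 (0.333), Fgf21 (0.373) or Zfp36 (0.465). With IPC, with IPO and with IPC+IPO, each alone against sham, all of these genes passed.

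Most changes were modest. The median difference was 0.50 over the genes called higher and -0.31 over those called lower, against 0.01 over all genes. A change of at least 1.5-fold was reached by 405 genes called higher and 12 called lower, and 2-fold by 49 and 1. The array ranges overlapped for every gene called higher, since in none did all 40 ischemic livers lie above the highest sham liver. For the typical called gene, 11 of 40 ischemic livers lay beyond all 8 sham livers. At the edge of the threshold, Cyp2t1 had a difference of 0.45 and an adjusted p of 0.0498 (called), and Stat5b a difference of 0.50 and an adjusted p of 0.0501 (not called).

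The arrays themselves differed in a way that touches these counts. The spread of an array, meaning the standard deviation of its log2 values across genes, averaged 1.85 ± 0.116 (SD, n = 40) in ischemic livers and 1.72 ± 0.134 (SD, n = 8) in sham livers, a difference of 0.122 (two-sided exact permutation p = 0.01). The arrays were known from earlier results of these data to differ in spread, so this test was not chosen blind to such differences. Group means of spread were 1.77 in IRI livers, 1.85 with IPC, 1.91 with IPO and 1.86 with IPC+IPO. Of the sham arrays, those of animals 43 and 48 stood apart at 1.96 and 1.91, and the other 6 lay between 1.61 and 1.70. By mean correlation with the other arrays, the arrays that stood apart most were ischemic. IRI animal 7 was at 0.888 and IPC+IPO animal 38 at 0.933, and the next lowest array, IRI animal 9, at 0.955. Sham animals 43 and 48 were at 0.974 and 0.977. The arrays of IRI animal 7 and IPC+IPO animal 38 also had the narrowest spread of the 48. With spread as a covariate, 449 genes passed (3.1%), 220 higher and 229 lower. These held 190 of the 1629 genes, 152 higher and 38 lower, and none of the 1629 had the opposite sign. Once the 14 arrays of narrowest spread were set aside, which leaves only sham animals 43 and 48, 1 gene passed and 933 of the 1629 had the opposite sign. Without those 2 sham animals, 5071 genes passed. The part of array spread in the gene differences was not tested beyond these fits. Beside the pooled values below stand values with spread as a covariate and values among arrays of wide spread, meaning without the 14 arrays. None of the genes named below passed in that last fit.

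**Figure D1:**
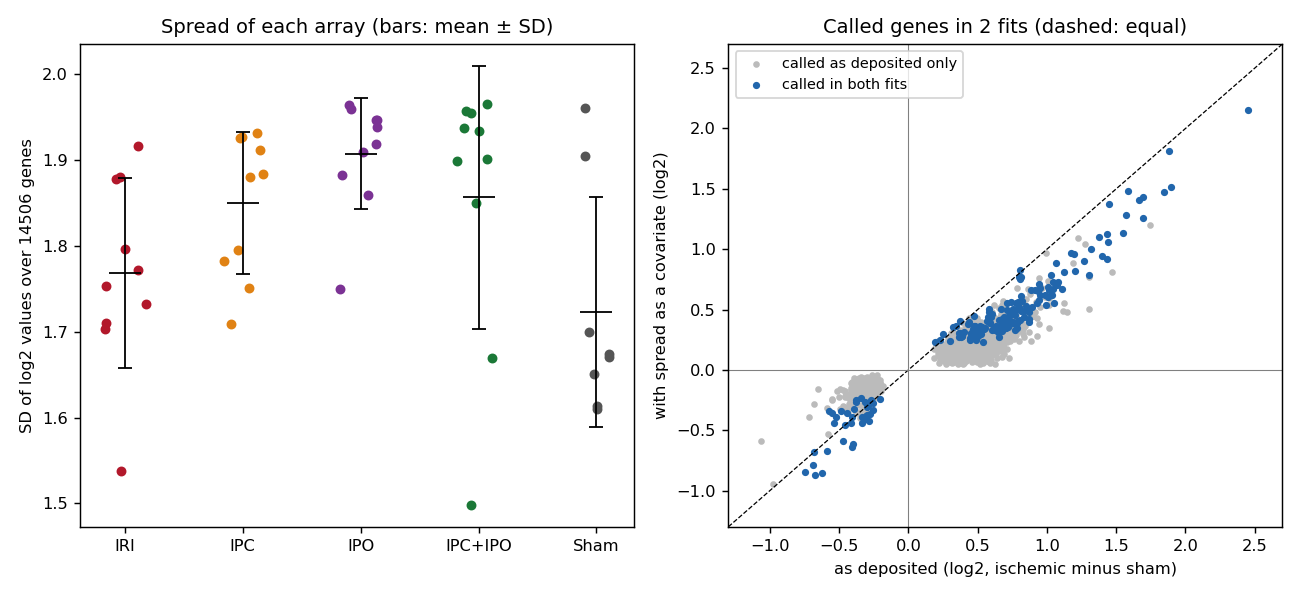
Left, spread of each of the 48 arrays by group, as the SD of log2 values over 14506 genes, with points for animals and bars for the mean ± SD: 2 sham arrays lie at 1.91 and 1.96, among the ischemic arrays, and the other 6 between 1.61 and 1.70. Right, difference between ischemic and sham livers (log2) of the 1629 called genes as deposited (x axis) and with spread as a covariate (y axis): most points lie closer to 0 on the y axis, 190 genes (blue) pass in both fits, and none changes sign.

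Subunits of AP-1 and Atf3, a related factor induced by many kinds of stress, formed the group with the highest median of the 34 gene lists examined. Of 9 measured members, 5 rose and 1 fell, and the median difference was 1.19, against 0.01 over all genes. For this and every list below, the background was 8.98% of all genes called higher and 2.25% called lower. It was 0.96 with spread as a covariate and 0.79 among arrays of wide spread. Atf3 ran from 6.26 through a median of 8.46 to 11.06 in ischemic livers, and from 5.63 through 5.97 to 7.83 in sham livers. It was thus above the highest sham liver in 28 of 40 ischemic livers, and above the sham median in all 40. Its difference was 2.45 ± 0.47 (SE, adjusted p = 0.00117), or 5.46-fold, with 1.58 in IRI livers, 2.92 with IPC, 2.63 with IPO and 2.66 with IPC+IPO. The 2 highest sham livers were animals 48 at 7.83 and 43 at 6.94, and the other 6 did not exceed 6.31.

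Jun, the main partner in AP-1 dimers, spanned 7.59 to 11.10 with a median of 9.30 in ischemic livers, and 6.32 to 8.83 with a median of 7.62 in sham livers. The difference was 1.70 ± 0.31 (adjusted p = 0.000883), and 27 of 40 ischemic livers exceeded every sham liver. Junb, a Jun relative that tempers AP-1 activity, spanned 7.07 to 10.14 in ischemic livers and 6.31 to 8.04 in sham livers, and differed by 1.66 ± 0.26 (adjusted p = 0.000167). Jund, the member present in resting cells, differed by 1.19 ± 0.19 (adjusted p = 0.000167), and its groups overlapped less than those of Jun: 33 of 40 ischemic livers, at up to 9.26, were above the highest sham liver at 7.21. Fos, the classical dimer partner of Jun, differed by 1.22 ± 0.31 (adjusted p = 0.00888), but did not pass with spread as a covariate (difference 1.09, adjusted p = 0.0556). The member that fell was Batf3, a factor of dendritic cell development, by 0.24 on the log2 scale. It lost its call when any one of 29 single arrays was left out, and its difference was -0.13 with spread as a covariate (adjusted p = 0.351) and 0.16 among arrays of wide spread.

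**Figure D2:**
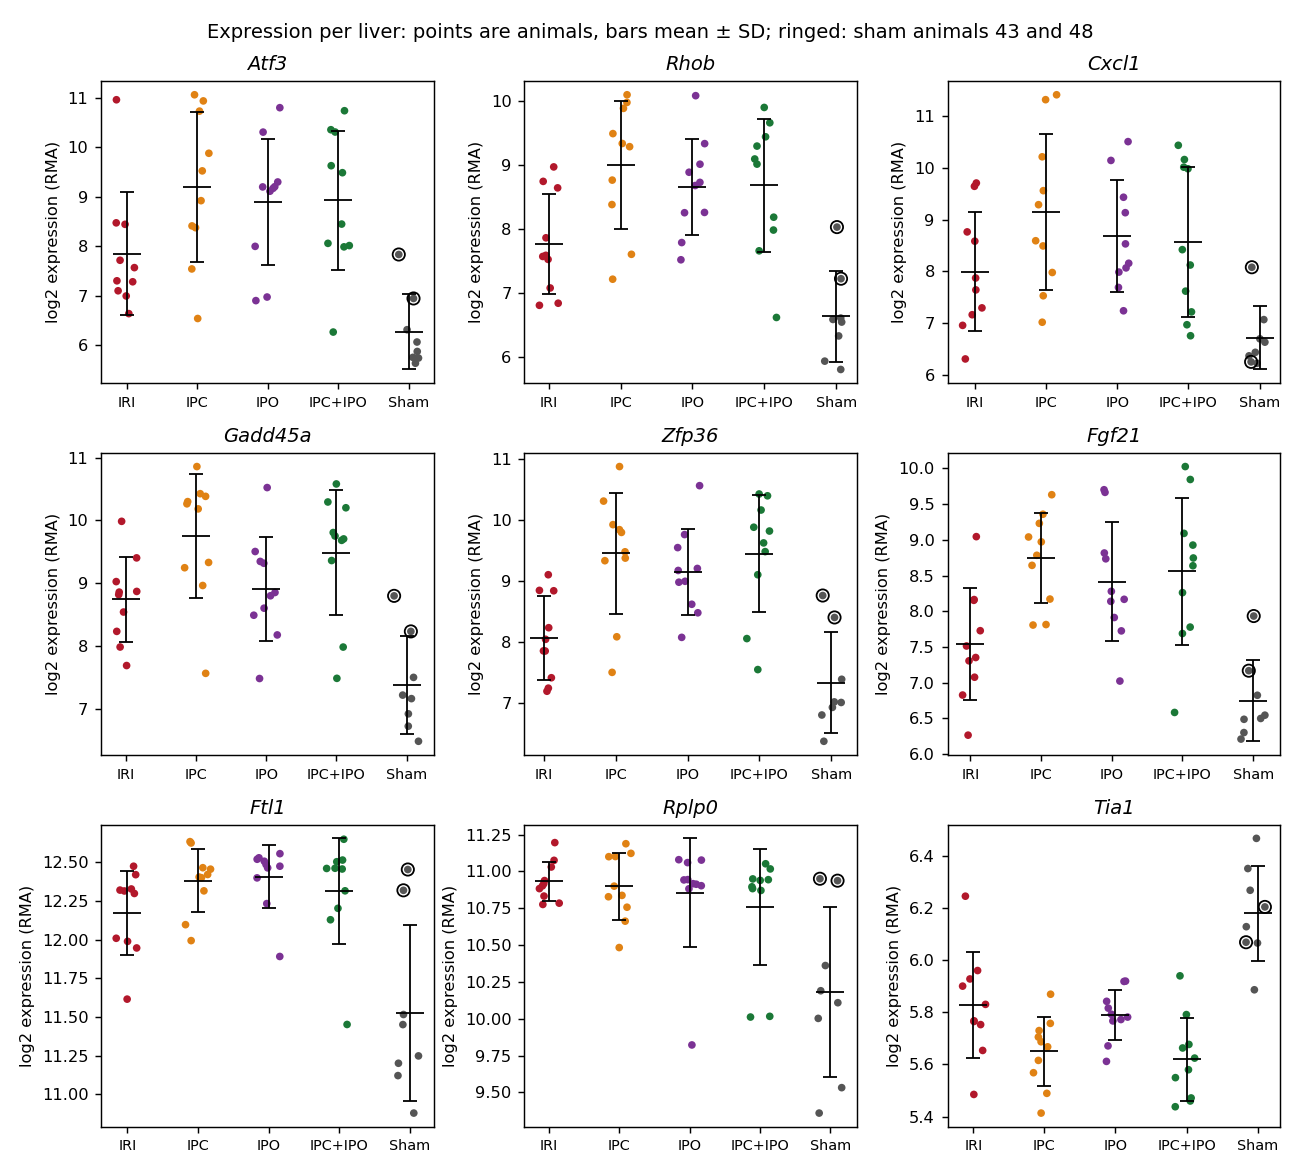
Log2 expression of 9 genes in each liver by group, with points for animals, bars for mean ± SD and rings around sham animals 43 and 48. Atf3, Rhob, Cxcl1, Gadd45a, Zfp36 and Fgf21 are higher in most ischemic livers than in sham livers, with the IRI group nearest to sham. For Ftl1 and Rplp0 the ringed sham animals lie among the ischemic livers, while Tia1 is lower in ischemic livers and its ringed animals lie with the other sham livers.

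Other immediate-early genes rose with them. Of 22 measured genes of the Egr, Nr4a, Ier and Klf families and their early targets, 11 rose and 1 fell, with a median of 0.41, of 0.34 with spread as a covariate and of 0.28 among arrays of wide spread. Rhob, a small GTPase made anew after stress, spanned 6.62 to 10.10 with a median of 8.71 in ischemic livers, and 5.81 to 8.03 with a median of 6.57 in sham livers (difference 1.89 ± 0.32, adjusted p = 0.000415). Egr1, a zinc finger factor induced through serum response elements, spanned 6.90 to 10.60 in ischemic livers and 6.18 to 8.19 in sham livers (difference 1.58 ± 0.30, adjusted p = 0.00118). In both genes 26 of 40 ischemic livers exceeded every sham liver, and sham animal 48 was the highest sham liver. Nr4a1, an orphan nuclear receptor, differed by 1.17 ± 0.23 (adjusted p = 0.00134), and its wide-spread sham animals, at 5.71 and 5.88, lay within the sham range of 4.89 to 6.14. Among arrays of wide spread its difference was still 1.08, although it did not pass there (adjusted p = 0.745).

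Klf6, a factor that also responds early in injured liver, was above every sham liver in 34 of 40 ischemic livers, the highest such count among the rises described here together with Pdk4. Its values were 6.05 to 8.54 in ischemic livers and 5.82 to 6.33 in sham livers, and its difference was 0.94 ± 0.22 (adjusted p = 0.00538) as deposited and 0.98 among arrays of wide spread. Ccn1, a matricellular protein, rose by 1.07 ± 0.23, Myc, a growth factor-responsive transcription factor, by 1.0 ± 0.25 and Ier2 by 0.97 ± 0.23 (adjusted p of 0.0031, 0.00888 and 0.00624). With spread as a covariate Ccn1 passed, but Klf6 (0.76, adjusted p = 0.0543), Myc (0.73, adjusted p = 0.0968) and Ier2 (0.68, adjusted p = 0.0847) did not. Ier2 was at 0.14 among arrays of wide spread. Sham animals 43 and 48 had 8.15 and 8.95 for it, and the other sham livers no more than 7.52. Egr3, a relative of Egr1, was the member that fell: it spanned 5.75 to 6.76 in ischemic livers and 6.02 to 6.72 in sham livers, a difference of -0.29 ± 0.09 (adjusted p = 0.025). Its call was lost without any one of sham animals 41, 42, 44, 45, 46 or 47, and its difference was -0.09 with spread as a covariate (adjusted p = 0.374) and 0.07 among arrays of wide spread. Fos, Batf3, Egr3, Ccn1, Ier2, Klf6 and Myc lay outside the rule for named genes and were chosen after their values were seen.

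Proximal promoters of early genes are known to hold response elements for factors already present in the cell, so those of the 15 largest rises were read for such elements. RefSeq promoters on the rat build GRCr8, from 250 bases before to 50 after the gene start, were searched on both strands for 3 palindromic elements: the CArG box bound by serum response factor, the cyclic AMP response element TGACGTCA, and the STAT element TTCNNNGAA. A promoter was matched for 12 of the 15 genes. One of the elements was found in 4 of these, shown here, and the other 8 held none of the 3 in this window. Capitals mark the element named with each sequence, written 5′ to 3′ on the gene's strand.
Egr1, chr18:26736828-26737127, plus strand, CArG boxes: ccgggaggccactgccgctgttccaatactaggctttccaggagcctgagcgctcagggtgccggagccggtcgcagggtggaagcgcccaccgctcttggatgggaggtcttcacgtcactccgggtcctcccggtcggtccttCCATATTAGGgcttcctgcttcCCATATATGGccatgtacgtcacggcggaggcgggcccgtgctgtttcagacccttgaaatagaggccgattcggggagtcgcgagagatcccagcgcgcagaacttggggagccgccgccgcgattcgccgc
Zfp36, chr1:92799059-92799358, minus strand, CArG box: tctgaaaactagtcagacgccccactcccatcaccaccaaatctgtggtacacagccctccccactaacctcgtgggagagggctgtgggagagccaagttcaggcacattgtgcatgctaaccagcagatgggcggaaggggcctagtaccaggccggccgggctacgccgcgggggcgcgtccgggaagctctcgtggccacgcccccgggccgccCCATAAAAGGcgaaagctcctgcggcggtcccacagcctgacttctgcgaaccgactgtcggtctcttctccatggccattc
Dusp1, chr10:17184603-17184902, plus strand, cyclic AMP response element: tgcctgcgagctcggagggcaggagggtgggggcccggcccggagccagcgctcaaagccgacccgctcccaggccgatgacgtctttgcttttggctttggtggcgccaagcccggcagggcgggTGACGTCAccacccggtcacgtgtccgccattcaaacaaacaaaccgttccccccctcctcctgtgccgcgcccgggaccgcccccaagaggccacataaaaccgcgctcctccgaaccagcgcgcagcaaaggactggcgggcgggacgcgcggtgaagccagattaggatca
Cish, chr8:116850719-116851018, plus strand, STAT elements: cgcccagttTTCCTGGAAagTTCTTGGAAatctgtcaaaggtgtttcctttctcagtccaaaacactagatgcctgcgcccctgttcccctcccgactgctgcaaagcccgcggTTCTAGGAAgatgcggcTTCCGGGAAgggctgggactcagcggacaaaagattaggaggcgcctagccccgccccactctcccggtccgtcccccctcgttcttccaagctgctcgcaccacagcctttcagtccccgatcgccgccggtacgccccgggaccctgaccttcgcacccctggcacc
Egr1 has 2 CArG boxes, which begin 105 and 83 bases before its start, and Zfp36 has 1, at 32 bases. The element of Dusp1 begins 124 bases before its start. Cish has 4 STAT elements, which begin 241, 230, 136 and 119 bases before its start, and Zfp36 holds 1 as well. A CArG box was present in 1.64% of 33469 promoters, in 1.35% of the 11968 matched among the tested genes and in 1.89% of the 1109 matched among genes called higher. The corresponding shares were 1.83%, 2.51% and 3.97% for the cyclic AMP response element, and 8.87%, 7.84% and 8.21% for the STAT element. The first share of each element counts promoters, and the others count genes with the element in any of their promoters. All of these are matches of letters, and no binding was measured.

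Genes that restrain signalling rose alongside those that carry it. Of 15 measured feedback regulators of MAP kinases and of mRNA stability, 6 rose and none fell, with a median of 0.30, of 0.36 with spread as a covariate and of 0.23 among arrays of wide spread. Zfp36 encodes tristetraprolin, which binds AU-rich elements and hastens the decay of cytokine mRNAs. It spanned 7.19 to 10.87 with a median of 9.13 in ischemic livers, and 6.37 to 8.76 with a median of 7.01 in sham livers. Its difference of 1.69 ± 0.31 (adjusted p = 0.000883) came from 0.73 in IRI livers, 2.12 with IPC, 1.81 with IPO and 2.12 with IPC+IPO. IRI livers exceeded every sham liver in 3 of 10 cases, IPC livers in 8, IPO livers in 7 and IPC+IPO livers in 8. Whether the 4 groups differed was tested, and Zfp36 did not pass (adjusted p = 0.0638).

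Dusp1, which inactivates p38 and JNK, spanned 8.68 to 11.43 in ischemic livers and 7.58 to 9.91 in sham livers, a difference of 1.44 ± 0.27 (adjusted p = 0.00104). Dusp6, a phosphatase specific for ERK, differed by 1.08 ± 0.21 (adjusted p = 0.00114). The highest sham livers for Zfp36, Dusp1 and Dusp6 were animals 43 and 48, and among arrays of wide spread the differences were 0.63, 0.55 and 0.64.

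Of 14 measured genes of SOCS and JAK-STAT feedback, 3 rose and none fell, beside 8.98% of all genes called higher and 2.25% called lower. The list's median was 0.10, 0.02 with spread as a covariate and 0.17 among arrays of wide spread, but -0.12 after renewed quantile normalization, and the list as a whole had no common direction across these fits. Socs2, an inhibitor of growth hormone signalling, spanned 6.32 to 11.14 with a median of 9.39 in ischemic livers, and 6.49 to 8.82 with a median of 7.62 in sham livers (difference 1.74 ± 0.37, adjusted p = 0.00284). The lowest value of all was thus in an ischemic liver, while 29 of 40 ischemic livers were above all sham livers. Sham animals 43 and 48, at 7.89 and 8.09, lay inside the sham range, and the difference was 1.48 among arrays of wide spread. With spread as a covariate it was 1.20 (adjusted p = 0.0502).

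Cish, which answers STAT5 and blocks cytokine receptors, spanned 5.86 to 9.42 in ischemic livers and 5.53 to 8.13 in sham livers (difference 1.44 ± 0.32, adjusted p = 0.00337). Here sham animal 43, at 8.13, was the exception, and sham animals other than 43 did not exceed 6.80. Socs3, the feedback inhibitor of interleukin-6 signalling, rose less, by 0.82 ± 0.17 (adjusted p = 0.00167), but 33 of 40 ischemic livers were above every sham liver.

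Among 14 regulators and targets of NF-kB, 4 rose and 1 fell, with a median of 0.21, of 0.12 with spread as a covariate and of 0.14 among arrays of wide spread. Nfkbia, the inhibitor that NF-kB itself induces, spanned 6.81 to 10.68 in ischemic livers and 7.08 to 8.38 in sham livers, a difference of 0.88 ± 0.22 (adjusted p = 0.00802). Irf1, an interferon-responsive factor, rose by 0.65 ± 0.18 (adjusted p = 0.0153), a call lost without sham animal 45. Vcam1, an adhesion molecule of activated endothelium, was the member that fell, with 5.14 to 6.35 in ischemic livers and 5.59 to 6.26 in sham livers (difference -0.33 ± 0.10, adjusted p = 0.0331). Its call was lost without any one of sham animals 42, 44, 45 or 47. None of these 3 genes passed with spread as a covariate, where Nfkbia was at 0.63 (adjusted p = 0.0951), Irf1 at 0.51 (adjusted p = 0.112) and Vcam1 at -0.33 (adjusted p = 0.088). Nfkbia did not pass after renewed quantile normalization either (0.60, adjusted p = 0.0546).

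Genes of growth arrest and of the p53 response also rose: 6 of 14 measured members were higher and 1 was lower, with a median of 0.37, of 0.25 with spread as a covariate and of 0.14 among arrays of wide spread. Gadd45a, which binds PCNA and arrests the cycle after damage, spanned 7.48 to 10.86 with a median of 9.32 in ischemic livers, and 6.48 to 8.80 with a median of 7.19 in sham livers (difference 1.84 ± 0.32, adjusted p = 0.000457). Gadd45g, its relative, spanned 7.85 to 10.60 in ischemic livers and 7.16 to 9.18 in sham livers (difference 1.55 ± 0.25, adjusted p = 0.000261). In both, sham animals 43 and 48 were the highest sham livers, and among arrays of wide spread the differences were 0.83 and 0.59. Gdf15, a circulating stress cytokine, differed in this respect: its sham range of 5.36 to 6.19 was narrow, animals 43 and 48 had 5.73 and 6.19, and the difference of 1.45 ± 0.35 (adjusted p = 0.00614) was 1.27 among arrays of wide spread. All 10 IPC livers exceeded every sham liver for Gdf15, as did 5 of 10 IRI livers. The lower member was Pmaip1, which encodes the pro-apoptotic protein Noxa, by -0.46 ± 0.12 (adjusted p = 0.0112). Its lowest sham livers were animals 43 and 48, at 4.92 and 5.21, its difference was -0.22 with spread as a covariate (adjusted p = 0.184) and 0.05 among arrays of wide spread, and its call was lost without sham animal 45.

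The integrated stress response lowers general translation through phosphorylated eIF2α and favours Atf4. Of 19 measured members of this response and of the response to unfolded protein in the ER, 5 rose and none fell. The list's median was 0.22, but -0.02 after renewed quantile normalization, 0.05 with spread as a covariate and -0.04 among arrays of wide spread. Ppp1r15a, the phosphatase subunit that reverses the eIF2α mark, led with 5.43 to 8.77 in ischemic livers and 5.16 to 6.54 in sham livers (difference 1.32 ± 0.25, adjusted p = 0.00117). Atf4 rose by 0.53 ± 0.12 (adjusted p = 0.00351), and its targets Ddit3 and Trib3 by 0.68 ± 0.21 and 0.51 ± 0.14 (adjusted p of 0.0285 and 0.0141). The call for Trib3 was lost without sham animal 47, and that for Ddit3 without any one of sham animals 41, 42, 44, 46 or 47. Ppp1r15a also passed with spread as a covariate, but Atf4 (0.32, adjusted p = 0.0649), Ddit3 (0.48, adjusted p = 0.199) and Trib3 (0.35, adjusted p = 0.139) did not. After renewed quantile normalization, Atf4 was at 0.23 (adjusted p = 0.138) and Ddit3 at 0.59 (adjusted p = 0.0597), both short of the threshold.

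Of 17 cytosolic heat shock chaperones, 4 rose and none fell, with a median of 0.19, of 0.02 after renewed quantile normalization, of -0.01 with spread as a covariate and of -0.09 among arrays of wide spread. Hspb1, a small chaperone, differed by 1.01 ± 0.30 (adjusted p = 0.0236), Dnajb1, a cofactor of Hsp70, by 0.77 ± 0.22 (adjusted p = 0.0171), and Hspb8 by 0.68 ± 0.15 (adjusted p = 0.00408). By protocol, the list median was -0.05 in IRI livers, 0.20 with IPC, 0.51 with IPO and 0.22 with IPC+IPO. The call for Dnajb1 was lost without any one of sham animals 41, 42 or 46, and that for Hspb1 without any one of 41, 42, 45, 46 or 47. Both calls were also lost without the IPO group. For each of these genes, 7 of 10 IPO livers exceeded every sham liver, against 1 of 10 IRI, 1 of 10 IPC and 3 of 10 IPC+IPO livers. None of the 3 passed with spread as a covariate: Hspb1 was at 0.59 (adjusted p = 0.241), Dnajb1 at 0.45 (adjusted p = 0.203) and Hspb8 at 0.33 (adjusted p = 0.0706). Hspb1 and Ddit3 were named after their values were seen.

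Inflammatory mediators rose in a few genes. All 24 listed cytokines and chemokines were measured, and 6 rose and none fell, with a median of 0.14, of 0.17 with spread as a covariate and of 0.15 among arrays of wide spread. Cxcl1, the principal neutrophil chemokine of the rat, spanned 6.31 to 11.42 with a median of 8.46 in ischemic livers, and 6.22 to 8.08 with a median of 6.53 in sham livers. Its difference was 1.88 ± 0.45 (adjusted p = 0.00579), and 23 of 40 ischemic livers exceeded all sham livers. Ischemic livers varied widely, and the lowest of them lay at the level of the lower sham livers. Of the sham animals, 48 had 8.08 while 43 had only 6.25, and the difference was 1.82 with spread as a covariate (adjusted p = 0.0306) and 1.54 among arrays of wide spread.

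Cxcl2, which acts on the same receptor, spanned 4.04 to 7.60 in ischemic livers and 4.00 to 5.10 in sham livers (difference 0.99 ± 0.33, adjusted p = 0.0412). Its call was lost without IPC+IPO animal 35 or without any one of sham animals 41, 42, 44, 45, 46 or 47, and it was named after its values were seen. Il10, an anti-inflammatory cytokine, was measured near the low end of the array, at 3.88 to 6.31 in ischemic livers and 3.72 to 4.41 in sham livers (difference 0.62 ± 0.19, adjusted p = 0.028). The same 6 sham animals each decided its call. With spread as a covariate, Cxcl2 was at 0.96 (adjusted p = 0.114) and Il10 at 0.53 (adjusted p = 0.126), and neither passed.

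Fgf21 and Pdk4, both genes of the fasting hepatocyte, were among the larger rises. Fgf21, a hepatokine of starvation and stress, spanned 6.27 to 10.03 with a median of 8.22 in ischemic livers, and 6.21 to 7.93 with a median of 6.52 in sham livers (difference 1.57 ± 0.29, adjusted p = 0.00104). Pdk4, a kinase that inhibits pyruvate dehydrogenase, spanned 7.0 to 10.87 with a median of 9.16 in ischemic livers. In sham livers it spanned 7.28 to 8.28 with a median of 7.94 (difference 1.37 ± 0.29, adjusted p = 0.00227). For Pdk4, 34 of 40 ischemic livers exceeded all sham livers, sham animals 43 and 48 lay within the sham range at 7.90 and 8.22, and the difference among arrays of wide spread was 1.31 (adjusted p = 0.637). Of 17 genes of fatty acid oxidation and fasting, 4 rose and none fell, with a median of 0.27, of -0.03 after renewed quantile normalization, of 0.02 with spread as a covariate and of -0.12 among arrays of wide spread. Igfbp1, which binds insulin-like growth factors and is raised by fasting and stress, was counted in the list of gluconeogenesis and glycogen below. Igfbp1 differed by 1.27 ± 0.31 (adjusted p = 0.0079), with 7.97 to 11.55 in ischemic livers and 6.91 to 9.32 in sham livers. It did not pass with spread as a covariate (1.05, adjusted p = 0.0673).

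Cholesterol synthesis gave the highest median of the metabolic lists. Of 21 measured genes of cholesterol and fatty acid synthesis, 10 rose and none fell, and the median was 0.49. It was 0.23 with spread as a covariate, where 3 passed, and 0.08 among arrays of wide spread. Insig1, which holds the sterol sensor SCAP in the ER and is itself a target of SREBP, spanned 9.09 to 11.70 in ischemic livers and 8.94 to 10.73 in sham livers (difference 1.03 ± 0.20, adjusted p = 0.00116). Tm7sf2 and Fdps, enzymes of sterol and isoprenoid synthesis, differed by 1.07 ± 0.22 (adjusted p = 0.00166) and 0.81 ± 0.16 (adjusted p = 0.00129). For both enzymes sham animals 43 and 48 lay among the ischemic livers: Fdps was 10.68 and 11.23 there and at most 10.23 in the other 6. Among arrays of wide spread the differences were 0.46 for Insig1, -0.06 for Tm7sf2 and -0.02 for Fdps.

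Of 21 antioxidant genes and targets of NRF2, the factor freed by oxidants, 8 rose and none fell, with a median of 0.33, of 0.13 with spread as a covariate and of 0.01 among arrays of wide spread. Osgin1, an oxidative stress-induced growth inhibitor, spanned 6.06 to 8.78 in ischemic livers and 5.64 to 7.32 in sham livers (difference 1.20 ± 0.24, adjusted p = 0.00134), and was 0.63 among arrays of wide spread. Hmox1, which degrades heme, differed by 0.73 ± 0.17 (adjusted p = 0.00516), by 0.39 with spread as a covariate (adjusted p = 0.0952, not passing) and by 0.04 among arrays of wide spread. Gpx1, a glutathione peroxidase, differed by 0.67 ± 0.13 (adjusted p = 0.00126) and by 0.13 there. Among 15 genes of metallothioneins and of iron and zinc handling, 4 rose and none fell, with a median of 0.13, of 0.02 with spread as a covariate and of 0.00 among arrays of wide spread. Ftl1, the ferritin light chain, and Hamp, the iron hormone hepcidin, rose to like extents, by 0.80 ± 0.13 (adjusted p = 0.000167) and 0.81 ± 0.17 (adjusted p = 0.00283). Among arrays of wide spread, Ftl1 was close to 0 and Hamp was at 0.83. Sham animals 43 and 48 had 12.45 and 12.32 for Ftl1, above the other sham livers at no more than 11.52, but 10.57 and 10.89 for Hamp, inside the sham range of 9.17 to 11.62.

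Ninj1, whose product ruptures the plasma membrane late in lytic cell death, spanned 7.70 to 9.48 with a median of 9.05 in ischemic livers, and 7.24 to 9.01 with a median of 7.78 in sham livers (difference 1.02 ± 0.16, adjusted p = 0.000167). By protocol the difference was 1.0 in IRI livers, 1.11 with IPC, 1.04 with IPO and 0.91 with IPC+IPO. Sham animals 43 and 48, at 8.81 and 9.01, lay with the ischemic livers, and the difference was 0.66 with spread as a covariate (adjusted p = 0.000804) and 0.15 among arrays of wide spread. Adora2b, an adenosine receptor associated with protection from ischemia, rose by 0.80 ± 0.20 (adjusted p = 0.00925), by 0.77 with spread as a covariate and was at 0.82 among arrays of wide spread. Without the IPO group it was at 0.64 and did not pass (adjusted p = 0.0691). Nfil3, a clock-output repressor, rose by 0.95 ± 0.21 (adjusted p = 0.00293), and it was the sole member of 15 clock genes that passed.

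Hypoxia-inducible genes are the classical answer to low oxygen. Of 23 measured members of the list used here, 1 rose and none fell, beside 8.98% of all genes called higher and 2.25% called lower. No member exceeded 0.49. The count covers this list alone: Apold1, which is also induced by hypoxia and differed by 1.27, was counted with the endothelial markers. The list's median was 0.07, or -0.07 after renewed quantile normalization, -0.01 with spread as a covariate and -0.06 among arrays of wide spread. The 1 member was Pgk1, a glycolytic enzyme, with 8.79 to 10.22 in ischemic livers and 8.61 to 10.03 in sham livers (difference 0.47 ± 0.13, adjusted p = 0.0171). It was 0.27 with spread as a covariate (adjusted p = 0.201), 0.16 after renewed quantile normalization (adjusted p = 0.328) and -0.12 among arrays of wide spread, and its call was lost without any one of sham animals 45, 46 or 47.

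Other metabolic and secretory lists held between 1 and 3 rises each, beside a background of 8.98% of all genes called higher. Of 16 genes of gluconeogenesis and glycogen, 2 rose and none fell, with a median of 0.38, of 0.03 with spread as a covariate and of -0.01 among arrays of wide spread. The larger of these rises was that of Igfbp1, described above with the fasting genes. Of 12 genes of the urea cycle and ammonia handling, 3 rose and none fell, with a median of 0.31, of 0.03 with spread as a covariate and of -0.08 among arrays of wide spread. Gls2, the liver glutaminase, was the member of smallest p, at 0.65 ± 0.14 (adjusted p = 0.00283). Of 19 acute phase proteins, 3 rose and none fell, with a median of 0.14, of -0.03 after renewed quantile normalization, close to 0 with spread as a covariate and of 0.01 among arrays of wide spread. Hpx, which scavenges heme in plasma, differed by 0.30 ± 0.08 (adjusted p = 0.0105), a call lost without sham animal 41 and with spread as a covariate (0.13, adjusted p = 0.161). Medians were 0.21 over 15 glucocorticoid-induced genes (2 rose and 1 fell), 0.20 over 19 genes of nucleolar ribosome biogenesis (3 rose), 0.13 over 17 cell death genes (3 rose), 0.04 over 15 clock genes (1 rose) and 0.03 over 20 vasoactive and adenosine genes (2 rose). These medians lay between -0.01 and 0.10 with spread as a covariate, and between -0.10 and 0.13 among arrays of wide spread.

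**Figure D3:**
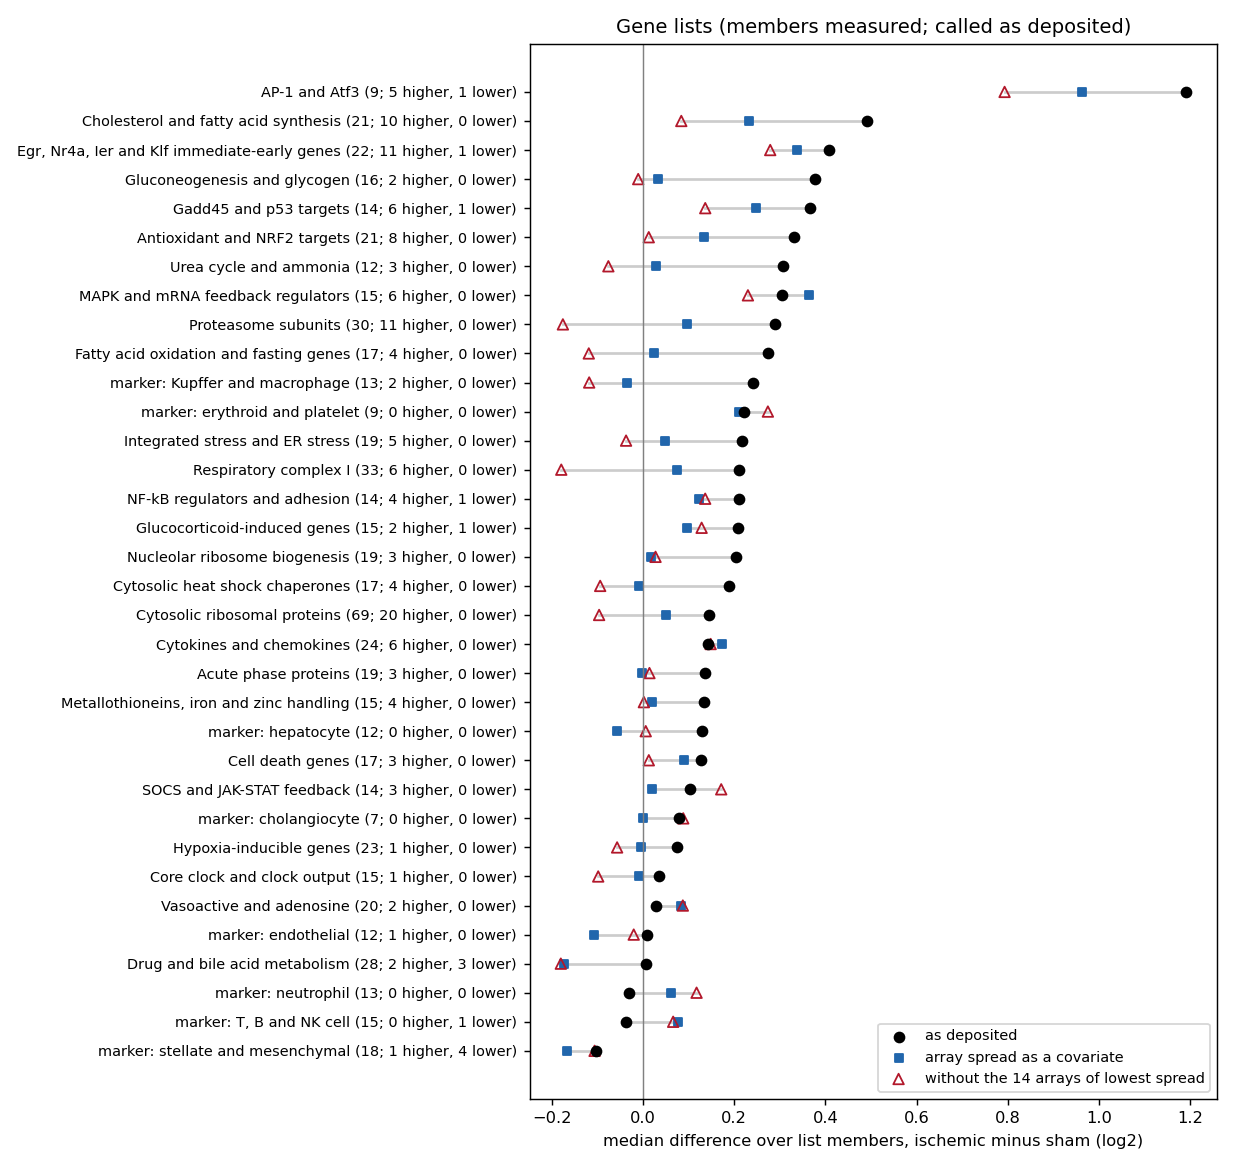
Median difference between ischemic and sham livers (log2) over the measured members of each of 34 gene lists, as deposited (black), with array spread as a covariate (blue) and without the 14 arrays of lowest spread (red), with the members measured and called in brackets. AP-1 and Atf3 are at 1.19, 0.96 and 0.79, whereas proteasome subunits are at 0.29, 0.10 and -0.18.

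Large complexes of housekeeping proteins held small rises in part of their members, and their medians changed sign between fits. Of 69 cytosolic ribosomal proteins, 20 rose and none fell, with a median of 0.14. That median was -0.08 after renewed quantile normalization, 0.05 with spread as a covariate and -0.10 among arrays of wide spread. Rplp0, of the ribosomal stalk, spanned 9.82 to 11.20 in ischemic livers and 9.36 to 10.95 in sham livers (difference 0.68 ± 0.14, adjusted p = 0.00144). For Rplp0, sham animals 43 and 48 had 10.95 and 10.94 and the other 6 at most 10.36, and the difference among arrays of wide spread was close to 0. Rpl6 gave the largest difference of the family, 0.78 ± 0.17, yet no ischemic liver exceeded sham animal 43, at 10.80, and it was -0.20 among arrays of wide spread. It was named after its values were seen.

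Of 30 proteasome subunits, 11 rose and none fell, with a median of 0.29, of -0.02 after renewed quantile normalization, of 0.10 with spread as a covariate and of -0.18 among arrays of wide spread. Psmc4, an ATPase of the regulatory particle, rose by 0.46 ± 0.11 (adjusted p = 0.00523) and was -0.03 among arrays of wide spread. Of 33 subunits of respiratory complex I, 6 rose and none fell, with a median of 0.21, of -0.11 after renewed quantile normalization, of 0.07 with spread as a covariate and of -0.18 among arrays of wide spread. Ndufb10, an accessory subunit, rose by 0.59 ± 0.14 (adjusted p = 0.0058) and was -0.05 among arrays of wide spread. None of these proteasome and complex I subunits passed with spread as a covariate, while 7 ribosomal proteins did. Pnkd, a metallo-β-lactamase domain protein that was among the 15 largest rises at 1.47 ± 0.33 (adjusted p = 0.00416), had the same form: 10.21 and 10.52 in sham animals 43 and 48, 6.85 to 8.63 in the other 6, with a difference of 0.81 with spread as a covariate (adjusted p = 0.0828) and of -0.26 among arrays of wide spread.

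Genes called lower in ischemic livers were fewer than those called higher in the values as deposited, 326 and 1303, but not with spread as a covariate, 229 and 220, and nearly as many after renewed quantile normalization, 570 and 606. Cyp7a1, the rate-limiting enzyme of bile acid synthesis, had the largest fall among genes other than LOC366310. It spanned 6.38 to 9.58 with a median of 8.31 in ischemic livers, and 7.93 to 9.90 with a median of 9.24 in sham livers. The difference was -0.98 ± 0.31 (adjusted p = 0.0344), or 1.97-fold lower, with -0.97 in IRI livers, -0.96 with IPC, -1.14 with IPO and -0.85 with IPC+IPO. It stayed near that size with spread as a covariate, at -0.94 (adjusted p = 0.105), and was -0.78 among arrays of wide spread. Its call was lost without any one of sham animals 41, 44, 45, 46 or 47. Nr0b2, the nuclear receptor SHP known to repress Cyp7a1, was higher in ischemic livers by 0.99 ± 0.32 (adjusted p = 0.0379). It was 0.60 with spread as a covariate (adjusted p = 0.284), 0.82 after renewed quantile normalization (adjusted p = 0.0794) and -0.39 among arrays of wide spread, its call was lost without any one of sham animals 41, 42, 44, 45, 46 or 47, and it was named after its values were seen.

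Both genes belong to a list of drug and bile acid metabolism, in which 2 of 28 measured members rose and 3 fell. Over all genes, 8.98% were called higher and 2.25% lower. The list's median was 0.01, or -0.17 with spread as a covariate and -0.18 among arrays of wide spread. Fmo1, a flavin monooxygenase of xenobiotic metabolism, spanned 7.58 to 10.17 in ischemic livers and 9.06 to 10.12 in sham livers, and 27 of 40 ischemic livers were below every sham liver (difference -0.68 ± 0.18, adjusted p = 0.0128). Nr1i3, the xenobiotic receptor CAR, spanned 7.03 to 9.35 in ischemic livers and 8.00 to 9.45 in sham livers (difference -0.62 ± 0.18, adjusted p = 0.0195). Both passed with spread as a covariate, at -0.87 (adjusted p = 0.0079) and -0.85 (adjusted p = 0.00675). The call for Fmo1 was lost without sham animal 45, and that for Nr1i3 without any one of sham animals 41, 42 or 45. Pfkfb1, the liver enzyme that makes and degrades fructose bisphosphate, an activator of glycolysis, spanned 7.31 to 9.61 with a median of 8.35 in ischemic livers, and 8.51 to 9.53 with a median of 9.16 in sham livers. It was below every sham liver in 29 of 40 ischemic livers (difference -0.75 ± 0.18, adjusted p = 0.00579), and it was -0.85 with spread as a covariate and -0.78 among arrays of wide spread. Nceh1, a cholesteryl ester hydrolase, fell by 0.69 ± 0.15 on the log2 scale (adjusted p = 0.00337).

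The smallest p-value of the comparison belonged to a fall of under 1.5-fold. Tia1, an RNA-binding protein that gathers stalled mRNAs in stress granules, spanned 5.41 to 6.24 with a median of 5.74 in ischemic livers, and 5.89 to 6.47 with a median of 6.17 in sham livers. It lay below every sham liver in 33 of 40 ischemic livers, 6 of 10 in IRI, all 10 in IPC, 8 of 10 in IPO and 9 of 10 in IPC+IPO. The difference was -0.46 ± 0.07 (adjusted p = 0.000161), with -0.35, -0.53, -0.39 and -0.56 in those groups. Sham animals 43 and 48, at 6.20 and 6.07, lay with the other sham livers. The difference was -0.45 with spread as a covariate (adjusted p = 0.000304) and -0.40 among arrays of wide spread (adjusted p = 0.32). Gng3, a G protein subunit, and Krt83, a hair keratin, were among the 15 largest falls, at -0.57 ± 0.12 and -0.55 ± 0.11, but animals 43 and 48 were the lowest sham livers for both, and among arrays of wide spread the differences were 0.07 for Gng3 and close to 0 for Krt83. Tia1 was named after its values were seen.

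**Figure D4:**
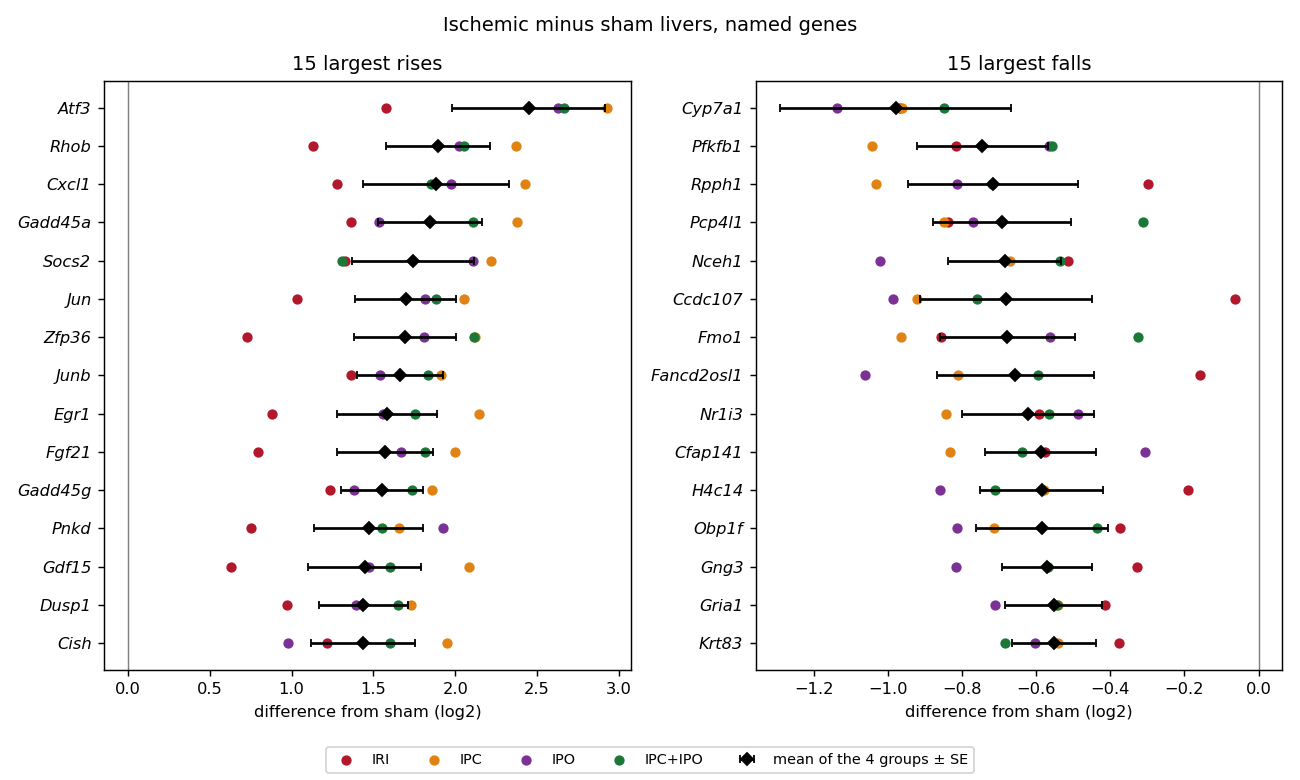
Difference from sham (log2) of the 15 largest rises and the 15 largest falls (the predicted gene LOC366310 left out), with coloured points for each of the 4 ischemia protocols and diamonds with bars for their mean ± SE. The genes shown have one sign in the 4 groups, and among the rises IRI is the lowest point in most, as for Atf3 at 1.58 and Zfp36 at 0.73.

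Marker genes of liver cell types were read beside a background of 8.98% of all genes called higher and 2.25% called lower. In a biopsy, fewer cells of a type and less RNA per cell cannot be told apart. None of 12 hepatocyte markers passed, and their mean level, at 11.43 to 12.25 in ischemic livers and 11.69 to 12.12 in sham livers, was high, as the labelled tissue requires. Of 13 Kupffer cell and macrophage markers 2 rose, the complement subunit C1qb by 0.42 ± 0.12 (adjusted p = 0.0243) and the complement receptor Vsig4 by 0.59 ± 0.20 (adjusted p = 0.0444). The median of that list was 0.24, but -0.03 after renewed quantile normalization, -0.03 with spread as a covariate and -0.12 among arrays of wide spread, and its mean level was 6.64 to 8.26 in ischemic livers and 6.95 to 8.07 in sham livers. The call for C1qb was lost without any one of sham animals 41, 42, 45, 46 or 47, and that for Vsig4 without any one of 26 arrays. Neither passed with spread as a covariate (C1qb 0.20, adjusted p = 0.297, and Vsig4 0.16, adjusted p = 0.578) or after renewed quantile normalization (adjusted p of 0.272 and 0.0813). Neutrophil markers were low, with a mean level of 4.75 to 5.62 in ischemic livers and 4.68 to 5.14 in sham livers, none of 13 passed, and their median was -0.03, or 0.05 after renewed quantile normalization, 0.06 with spread as a covariate and 0.12 among arrays of wide spread.

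Stellate and mesenchymal markers gave the lowest median of the lists, -0.10, or -0.17 with spread as a covariate and -0.11 among arrays of wide spread: of 18, 4 fell and 1 rose. The 4 were the collagen genes Col1a1 (-0.32 ± 0.10) and Col1a2 (-0.30 ± 0.10), the stellate cell factor Hand2 (-0.31 ± 0.09) and the PDGF receptor Pdgfra (-0.28 ± 0.08), with adjusted p of 0.0292, 0.0423, 0.0174 and 0.0209. The member that rose was Acta2, smooth muscle actin, by 0.42 ± 0.14 (adjusted p = 0.0492), a call lost without any one of 33 arrays. Calls for the other 4 were each lost without one sham animal or another, among them 46 and 47 for every one of the 4. Pdgfra also passed with spread as a covariate, but Col1a1 (-0.32, adjusted p = 0.0851), Col1a2 (-0.33, adjusted p = 0.0774), Hand2 (-0.15, adjusted p = 0.233) and Acta2 (0.20, adjusted p = 0.412) did not. The mean level of this list was 6.38 to 7.18 in ischemic livers and 6.68 to 7.21 in sham livers. Apold1, a gene of endothelium that is induced by hypoxia and ischemia, was the sole endothelial marker of 12 that passed: it spanned 4.96 to 8.16 in ischemic livers and 4.68 to 6.26 in sham livers (difference 1.27 ± 0.25, adjusted p = 0.00125). The list's median was 0.01, or -0.15 after renewed quantile normalization, -0.11 with spread as a covariate and -0.02 among arrays of wide spread. Of 15 markers of T, B and NK cells 1 fell (Klrd1, a call lost without any one of sham animals 41, 42, 44, 45, 46 or 47 and with spread as a covariate), and none of 7 cholangiocyte markers and none of 9 erythroid and platelet markers passed. Their medians were -0.04, 0.08 and 0.22. The part of cell composition in the gene differences was not tested. Acta2 and Col1a2 were named after their values were seen.

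The pooled mean stood for the 4 protocols to different degrees. Over the 1303 genes called higher, the median difference from sham was 0.33 in IRI livers, 0.54 with IPC, 0.60 with IPO and 0.51 with IPC+IPO. IRI, the protocol without conditioning, had the smallest of the 4 rises in 1026 of those genes and the smallest fall in 252 of the 326 called lower. Over all genes, IRI had the smallest absolute difference in 51.8%. IRI arrays also had the lowest mean spread of the 4 groups, 1.77. They included that of animal 7, the array least correlated with the others. Its part in the smaller IRI differences was not tested. A limma F test among the 4 ischemic groups, which uses no sham array in its differences, passed for 10 genes (0.0689%), and 3467 had an unadjusted p under 0.05. None of the 10 was among the 1629 called in the pooled comparison.

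The 5 genes of smallest p in that test shared an adjusted p of 0.0301. Lsm12, an RNA-binding protein of the Sm-like family, averaged 6.92 ± 0.26 in IRI livers, 7.37 ± 0.19 with IPC, 7.35 ± 0.12 with IPO and 7.28 ± 0.12 with IPC+IPO (SD, n = 10 each), and 7.20 to 7.57 in sham livers. Dnajb4, a Hsp70 cofactor, was at 6.29 ± 0.49 in IRI livers, 7.02 ± 0.32 with IPC, 7.16 ± 0.30 with IPO and 6.86 ± 0.39 with IPC+IPO, around sham livers at 6.23 to 7.06. Pinx1, a nucleolar inhibitor of telomerase, and Rbm34, an RNA-binding protein, were also lowest in IRI and highest in IPO: Pinx1 differed from sham by -0.18 in IRI and 0.46 in IPO, and Rbm34 by -0.37 and 0.36. Mt2A, a metallothionein that binds zinc and copper, differed in another direction: it was 11.99 ± 0.36 in IRI, 11.79 ± 0.88 in IPC and 11.93 ± 0.78 in IPC+IPO, but 10.47 ± 0.63 in IPO, with 9.41 to 12.20 in sham livers. No gene passed this limma F test without any one of IRI animals 2, 3, 5, 7, 8 or 9 or IPO animals 21, 23 or 26, so these calls hang on single arrays.

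In the 2 called genes without a common direction, IRI was the protocol whose sign differed. Hnrnpab, a nuclear ribonucleoprotein, differed from sham by -0.05 in IRI livers, 0.47 with IPC, 0.54 with IPO and 0.43 with IPC+IPO, and its pooled difference was 0.35 ± 0.11 (adjusted p = 0.0388). Pde4a, a phosphodiesterase of cyclic AMP, differed by 0.00 in IRI livers, -0.36 with IPC, -0.44 with IPO and -0.35 with IPC+IPO, and its pooled difference was -0.29 ± 0.09 (adjusted p = 0.0327). Neither passed the F test, with adjusted p of 0.0521 and 0.0619. Both calls were lost without any one of sham animals 41, 44, 45, 46 or 47, and for Hnrnpab also without 42. Neither passed with spread as a covariate (0.09, adjusted p = 0.549, and -0.12, adjusted p = 0.36) or after renewed quantile normalization (adjusted p of 0.663 and 0.0577).

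In each alternative fit but the one that set aside the 14 arrays of narrowest spread, 142 genes passed. They included Atf3, Rhob, Cxcl1, Gadd45a, Jun, Zfp36, Junb, Egr1, Fgf21, Gadd45g, Gdf15, Dusp1 and Cish among the rises, and Tia1, Pfkfb1, Nceh1, Fmo2, Gng3 and Krt83 among the falls. Rpl6, Tm7sf2 and Fdps also belonged to the 142, although they were at -0.20, -0.06 and -0.02 among arrays of wide spread. Gng3 was at 0.07 there, whereas the rises from Atf3 to Cish kept their sign. Fmo2, a relative of Fmo1 named after its values were seen, fell by 0.52 ± 0.11 on the log2 scale (adjusted p = 0.00274). No gene passed in every alternative fit. The stricter thresholds, an adjusted p under 0.01 and a change of at least 1.5-fold, were not counted among these fits. Tia1, Fmo2, Gng3 and Krt83 fell by less than 1.5-fold.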

How the data were processed

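Liver biopsies of 48 rats were each measured on 1 Affymetrix array. The deposited values are log2 expression per probe set, made by the authors with RMA (background correction, quantile normalization, probe summary) in Affymetrix Expression Console, per the submitters' processing notes. No version, filter, hybridization day or batch is given in the sources used here.

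Of 29215 probe sets, 15310 had 1 gene symbol in the platform annotation, 323 several and 13582 none. The probe set of highest mean was used for each of 14506 genes (527 had several), with no filter on dim genes. limma 3.58.1 in R 4.3.3 (lmFit, eBayes) fitted 5 groups together (43 residual degrees of freedom), without covariates. The contrast was the mean of the 4 ischemic group means minus sham, two-sided, Benjamini-Hochberg adjusted over all genes, threshold 0.05. A moderated F test compared the 4 ischemic groups. Array spread was tested by exact permutation over 377348994 splits, after arrays were known from earlier results of these data to differ in it. Standard errors (SE) are limma's.

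Named genes are a selection from the 15 largest rises and falls among called genes of 1 direction (predicted and small RNA genes skipped, 1 among the falls), up to 3 called genes without it, the 5 of smallest p in the F test and the 3 of smallest p in each of 34 gene lists; others are marked as chosen after their values were seen. The members and lists were chosen with earlier results of these data known, and lists are described by counts and medians, with no test. Alternatives were array spread entered as a covariate, a fit of 2 groups, omission of each array, each group or the 14 arrays with the narrowest spread, trended and robust variance, omission of the dimmest 33.3% of genes, array weights, other choices of probe set, median centring, renewed quantile normalization and stricter thresholds. Promoters are from RefSeq (GRCr8). On simulated data of 14506 genes, the pooled comparison found 84% of 100 genes changed 1.5-fold and 98% of 100 changed 2-fold. Simulated noise was independent between genes and held no differences in spread between arrays, unlike the real data. These shares may therefore not hold for the real arrays. Python 3.11.15 and matplotlib 3.10.9 made the figures.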

Additional observations from a re-analysis of the deposited data

Results flagged for a closer look

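Within single groups, 41 of 435 tested sets of values held an array far from its nearest neighbour by Dixon's ratio, where chance alone flags about 1 in 20 groups. The values that follow are log2 expression. Animal 30 of the IPO group gave 14 of the 41. Its array had the lowest spread of its group, 1.75. It was the lowest IPO liver for Tm7sf2 (7.86), Gpx1 (10.86), Ftl1 (11.89), Ninj1 (7.98), Pgk1 (8.79), Gls2 (8.99), Rplp0 (9.82), Psmc4 (8.94), Pnkd (8.35), C1qb (7.03), Vsig4 (5.90) and Rpl6 (9.47), and the highest for Pfkfb1 (9.61).

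Animal 37 of the IPC+IPO group gave 11. It was the lowest of its group for Atf4 (9.21), Insig1 (9.09), Tm7sf2 (8.20), Fdps (9.23), Ftl1 (11.45), Ninj1 (7.70), Nfil3 (6.85), Ndufb10 (8.19), Pnkd (7.71) and Rpl6 (9.27), and the highest for Gng3 (6.40). Animal 38 of that group was lowest for Pdgfra (5.83). Among early genes, IRI animal 5 stood above its group for Atf3 (10.96), Junb (9.97) and Ddit3 (8.59), and IPO animal 22 for Myc (8.10), Dusp6 (9.48) and Nfil3 (9.46). IRI animal 1 stood above its group for Irf1 (7.15) and below it for Gpx1 (11.54). IRI animal 7 stood below for Hspb8 (7.43) and Dnajb4 (5.16) and above for Hand2 (7.48). In the IPC group, animal 15 was highest for Irf1 (8.39), animal 11 lowest for Rbm34 (5.24) and animal 12 lowest for Mt2A (9.81). Sham animal 48 stood above the other sham livers for Cxcl1 (8.08). Without IRI animal 7, IPO animal 30 and IPC+IPO animals 37 and 38, a choice made after seeing the data, 4918 genes passed in the pooled comparison, against 1629 with them.

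The test among the 4 ischemic groups singled out Lsm12, Dnajb4, Pinx1, Rbm34 and Mt2A, each with an adjusted p of 0.0301, for a difference between protocols. That test uses no sham array in its differences, and none of the 5 passed in the pooled comparison with sham as deposited. Lsm12 passed there after renewed quantile normalization (-0.43, adjusted p = 0.0049, against -0.19 as deposited), Dnajb4 without IRI (0.37, adjusted p = 0.0278), and Pinx1 in 5 fits, among them those with array weights (0.35, adjusted p = 0.00186) and without IRI (0.33, adjusted p = 0.012).

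Probe sets with no gene symbol, or with several, entered no gene count. In the same limma model, 1183 of 13905 such probe sets passed (8.51%), 487 higher and 696 lower in ischemic livers, and 1177 had one direction in the 4 groups. Over the probe sets with 1 symbol, 10.6% passed. In none of the 487 did all 40 ischemic livers exceed all sham livers. The largest rise was in probe set 10767767, at 1.98 ± 0.34 (SE, adjusted p = 0.000323), and the largest fall in probe set 10803049, at -2.43 ± 0.55 (adjusted p = 0.00434). These probe sets are unnamed here.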

How the results depend on the processing

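As deposited, 1629 genes passed (1303 higher, 326 lower), 1627 with one direction, and 10 passed among the ischemic groups. In this order, the 3 counts became 449, 449 and 3 with array spread as a covariate; 1, 1 and 406 without the 14 arrays of lowest spread; 8315, 8129 and 4542 with array weights; 3871, 3871 and 0 without IRI; 900, 900 and 318 without IPC; 466, 466 and 0 without IPO; and 433, 433 and 0 at an adjusted p under 0.01. Without IPC+IPO, 1509 and 972 passed in the first and last, and 417 and 417 in the first pair at 1.5-fold or more. After the data were seen, sham animals 43 and 48 were left out (5071, 5038 and 346), as were IRI 7, IPO 30, IPC+IPO 37 and 38 (4918, 4805 and 1055). Quantile normalization turned the split of 1303 higher and 326 lower into 606 and 570, and only 781 of the 1629 genes were still called. The ischemic count was 22 with a trended and robust variance, 63 without the dimmest 33.3% of genes, 47 over all probe sets, 68 after median centring and 117 after quantile normalization.

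Leaving out 1 array gave 629 to 3570, 629 to 3536 and 0 to 1375. The pooled count was 629 to 915 without any one of sham animals 41, 42 or 44 to 47, 3570 without 43, 2906 without 48, 2579 without IRI 7 and 2523 without IPC+IPO 38. The ischemic count was at most 5 without any one of IRI 2, 3, 5, 7, 8 or 9 or IPO 21, 22, 23, 24, 26 or 27, and at least 19 without any one of IRI 1, 4, 6 or 10, IPC 11, 12 or 17, IPO 25 or 30, IPC+IPO 34, 37 or 38, or sham 41, 43 or 48.

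Of the called genes among the 85 named, 37 lost their call with spread as a covariate, 24 without IPO, 13 without IPC, 12 after quantile normalization, 9 without IPC+IPO, 6 in the fit of 2 groups, 4 with a trended and robust variance, 1 after median centring and 1 without IRI. Without the 14 arrays of lowest spread, 66 lost it and 14 reversed: Batf3 (0.159), Egr3 (0.0697), Pmaip1 (0.0451), Tm7sf2 (-0.0568), Fdps (-0.0242), Pgk1 (-0.12), Ndufb10 (-0.0535), Psmc4 (-0.0339), Pnkd (-0.264), Gng3 (0.0675), Vsig4 (-0.291), Pde4a (0.0467), Nr0b2 (-0.391) and Rpl6 (-0.197). The cause was not tested. No called gene reversed in another setting. Of the 5 named genes not called in the pooled comparison, Rbm34 (0.0454 as deposited) was at -0.102 with the covariate, -0.0531 without the 14 arrays, -0.0594 without IPO and -0.00875 without sham 46, Dnajb4 (0.188) at -0.00804 with the covariate, and Pinx1 (0.206) at -0.132 without the 14 arrays. No paired analysis was possible because the animal numbers run from 1 to 48 and no 2 groups share one.

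The number of arrays, 8 in the sham group, limits the precision of every value. Probe signal over background was not analysed here.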
